A study of Homo sapiens with 6 samples.

Results

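The genes described are 34 members of glycolysis and of the hypoxia response, taken by symbol from a deposited table of 15706 genes measured by RNA-seq in MDA-MB-231, an established line of triple-negative human breast cancer cells. All 34 were in the table and passed the filter on low values. They comprise 17 glycolytic enzymes, 5 regulators of the pathway (the PFKFB and PDK kinases) and 12 targets of the hypoxia-inducible factors (HIF) that do not catalyse glycolysis. The 3 knockout libraries, labelled sgMLL3 and given the genotype MLL3-knock out, were compared with 3 control libraries, labelled sgNT and given a wild-type genotype. MLL3 (approved symbol KMT2C) is a histone H3 lysine 4 methyltransferase that acts at enhancers. Both groups were untreated cells grown in DMEM with serum. Whether each line was a clone or a pool is not stated, and no oxygen level is given.

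Glycolysis converts glucose to pyruvate in the cytosol, and lactate dehydrogenase then turns pyruvate into lactate. In low oxygen the HIF alpha subunits escape degradation, pair with ARNT and bind hypoxia response elements whose core reads ACGTG or GCGTG, which raises transcription of glycolytic enzymes together with genes for vessel growth, acid export and mitophagy. Many cancer cells, MDA-MB-231 among them, run glycolysis at a high rate also when oxygen is present.

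Several non-glycolytic HIF targets were higher in the knockout libraries, whereas the glycolytic enzymes as a rule were not. Of the 12 targets, 7 rose and 0 fell, with a median log2 fold change of 0.31. Of the 17 enzymes, 0 rose and 1 fell, with a median of -0.076 that was 0.031 after quantile normalization, and of the 5 regulators 3 rose and 0 fell. In bulk RNA, fewer cells of a kind and less RNA per cell cannot be told apart, and p-values measure the spread between these libraries. The sample titles call them biological replicates without saying whether they came from separate cultures. Over all 14618 genes tested, 18.9% were called higher and 14.4% lower, with a median of -0.017. A gene is called where its adjusted p in limma, with Benjamini-Hochberg adjustment over all genes tested, was under 0.05. At an unadjusted p under 0.05 the counts were 7 and 0 for the HIF targets, 0 and 4 for the enzymes and 3 and 0 for the regulators, higher and lower, against 23.3% and 20.8% of all genes. By edgeR and DESeq2, run on read counts recovered from the normalized values, the calls were also 7 and 0 HIF targets and 3 and 0 regulators, with 0 enzymes higher and 3 (edgeR) or 2 (DESeq2) lower, against 18.3% higher and 15.3% lower of all genes by edgeR and 19.5% and 15.7% by DESeq2. Fold changes are knockout over control on the scale log2(normalized count + 1), with the standard error (SE) of limma, and normalized counts are reads divided by 1 size factor per library.

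The deposited values gave back 41401044, 49514464 and 48111363 reads in knockout replicates 1 to 3 and 41240265, 42024652 and 48244821 in control replicates 1 to 3. KMT2C itself read 1506 ± 161 in knockout and 1334 ± 68.5 in control libraries (normalized counts, SD, n = 3 each), a log2 fold change of 0.17 (SE 0.10, adjusted p = 0.2), so its transcript level did not separate the groups and gives no check of the knockout. Fold changes followed base composition over the whole table, with a Spearman rho of -0.673 between fold change and transcript GC content across genes. Each member is therefore also given with the trend along GC content and transcript length removed, where 4.08% of 14598 genes were called higher and 5.95% lower. The trend is itself a difference between the groups, and whether it came from the libraries or from the knockout was not tested. Values with the trend removed are thus a second description and not corrected values. All 11 markers chosen for the line were listed, with summed normalized counts of 272442 to 279656 in knockout and 283858 to 297430 in control libraries. Single markers went both ways. CAV1 and ANXA1 were higher in every knockout library than in any control library, VIM, AXL, KRT7 and KRT81 were lower, and the others overlapped. Of 7 luminal and epithelial markers 4 were listed (summed counts 6008 to 6653 in knockout, 6986 to 7459 in control), and CDH1 read at most 5.51 in knockout and 7.52 in control libraries. ERBB2 read 4581 to 5282 in knockout and 5612 to 6016 in control libraries, and GATA3 426 to 505 in knockout and 572 to 674 in control. EPCAM went the other way, at 861 to 999 in knockout and 765 to 796 in control libraries. The receptors ESR1 and PGR and the factor FOXA1 were not among the rows, which hold genes with at least 1 read in every library. Of 8 fibroblast markers 3 were listed (summed counts 957 to 1051 in knockout, 1672 to 1836 in control), and of 7 leukocyte markers 5 (437 to 557 in knockout, 582 to 907 in control). Their part in the results was not tested.

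With the trend removed, 5 of the 12 HIF targets rose and 0 fell (median 0.18), 2 of the 17 enzymes rose and 0 fell (median 0.0054), and 1 of the 5 regulators rose and 0 fell (median 0.091). At an unadjusted p under 0.05 these counts were 6 and 0, 4 and 0, and 2 and 0, against 11.1% higher and 14.4% lower of all genes. The HIF targets CA9, VEGFA and BNIP3 were called higher in both analyses, which is 3 of the 7 called as deposited and 3 of the 5 called with the trend removed. No enzyme and no regulator was called in both. The groups did not overlap, with every knockout library above every control library, in 8 HIF targets, 3 regulators and 1 enzyme, against 23.9% of all genes. In 4 enzymes every knockout library lay below every control library, against 22.4% of all genes.

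**Figure D1:**
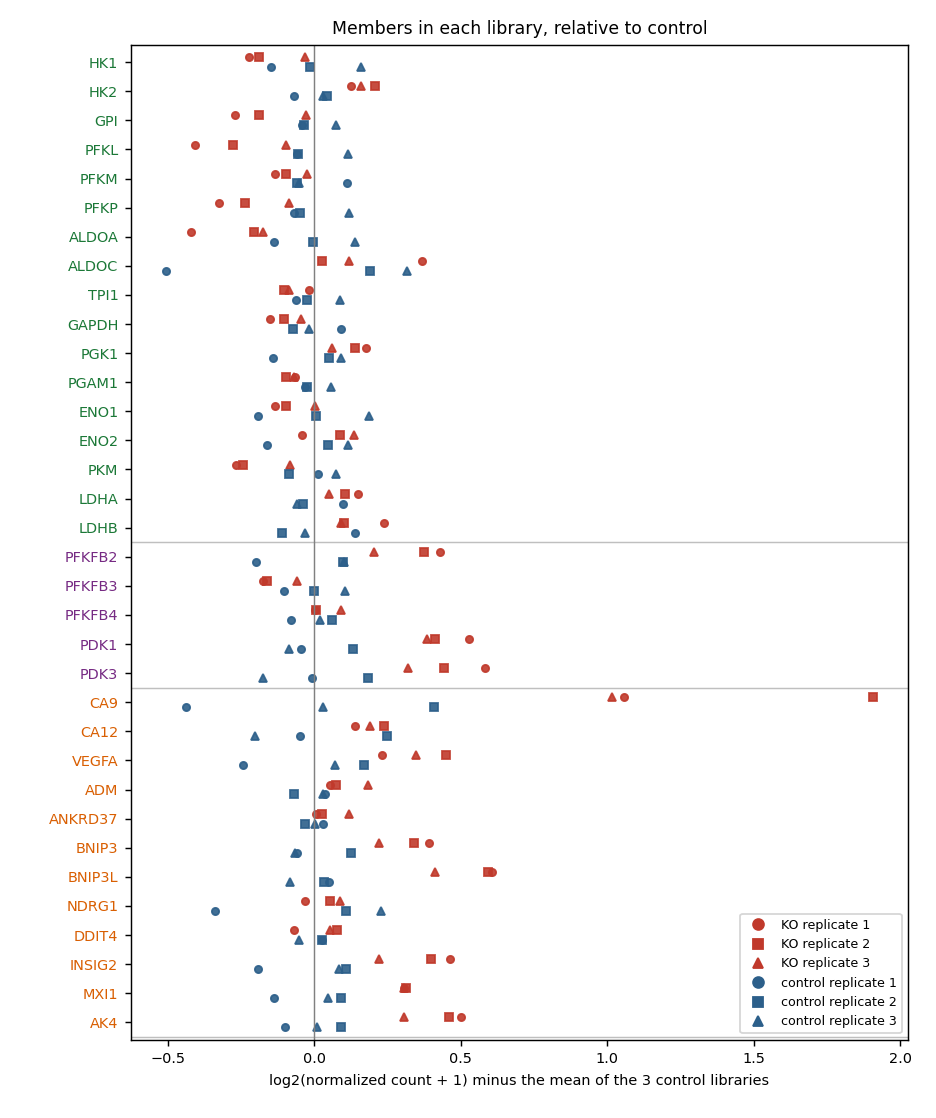
Each row is 1 member and each point 1 library: the horizontal axis gives log2(normalized count + 1) minus the mean of the 3 control libraries. Knockout libraries (red, upper points of a row) lie right of all control libraries (blue) in 8 of the 12 HIF targets, 3 of the 5 regulators and 1 of the 17 enzymes, and CA9 shows the widest separation.

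CA9 and CA12 encode carbonic anhydrases of the cell surface, which hydrate carbon dioxide outside the cell and so help to export acid. CA9 (ENSG00000107159.13, chromosome 9, 35673856 to 35681159, plus strand) was read at 44.4, 80.6 and 43.1 normalized counts in knockout replicates 1 to 3, against 15.1, 27.9 and 21.3 in control replicates 1 to 3. Every knockout library was above every control library, at a low level throughout. Its mean was 2.62 times that of the control libraries, and its log2 fold change was 1.33 (SE 0.36, adjusted p = 0.0097), or 1.58 (SE 0.36, adjusted p = 0.018) with the trend removed. CA9 transcripts are 60.1% GC. In GENCODE 29, 38.5% of the exon bases of CA9 also lie in exons of ARHGEF39 on the opposite strand, which read 329 in knockout and 390.3 in control libraries on average. The strand setting of the counting is not given in the sources used here, and the part of such reads in the CA9 values was not tested. CA12 had 825, 884 and 854 in knockout and 725, 890.3 and 651 in control libraries. These overlapped, and its fold change of 0.19 (SE 0.12, adjusted p = 0.24) did not pass, with a 95% interval of -0.063 to 0.44. The CA9 call was lost without knockout replicate 2 (1.04, adjusted p = 0.09), the library with its highest count, and with the trend removed it was lost without knockout replicate 1 (1.69, adjusted p = 0.072) or 2 (1.28, adjusted p = 0.11).

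VEGFA and ADM encode secreted signals: vascular endothelial growth factor A, which drives vessel growth, and adrenomedullin, a peptide that widens vessels. VEGFA (ENSG00000112715.23, chromosome 6, 43770184 to 43786487, plus strand) was read at 10724, 12462 and 11611 normalized counts in the knockout libraries, against 7714, 10272 and 9591 in the control libraries. The groups did not overlap, and control replicate 1 was the lowest of all 6 libraries. VEGFA rose by 0.34 (SE 0.098, adjusted p = 0.013), and by 0.43 (SE 0.084, adjusted p = 0.0089) with the trend removed. Without control replicate 1 the fold change was 0.22 (adjusted p = 0.025). The call was lost without knockout replicate 2 (0.29, adjusted p = 0.086), and with the trend removed without knockout replicate 1 (0.44, adjusted p = 0.057) or 2 (0.40, adjusted p = 0.067). ADM had 3536, 3582 and 3865 in knockout libraries, against 3495, 3248 and 3474 in control libraries. These did not overlap, but the distance between them was small. Its fold change of 0.10 (SE 0.083, adjusted p = 0.35) did not pass as deposited and was 0.34 (SE 0.056, adjusted p = 0.0042) with the trend removed, a call kept in each of the 6 fits that left out 1 library.

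BNIP3 and BNIP3L (also known as NIX) encode related outer mitochondrial membrane proteins that mark mitochondria for mitophagy. BNIP3 (ENSG00000176171.11, chromosome 10, 131966455 to 131982013, minus strand) was read at 13895, 13395 and 12328 normalized counts in knockout libraries, against 10156, 11529 and 10115 in control libraries. Its groups did not overlap and it rose by 0.32 (SE 0.082, adjusted p = 0.0076), and by 0.41 (SE 0.072, adjusted p = 0.0056) with the trend removed. Both calls were lost without knockout replicate 1 (0.28, adjusted p = 0.051 as deposited and 0.36, adjusted p = 0.051 with the trend removed). GENCODE 29 lists 39 BNIP3 pseudogenes, of which 3 are in the table, so reads shared with such copies make its level uncertain. BNIP3L (ENSG00000104765.16, chromosome 8, 26382898 to 26505636, plus strand) had 5253, 5205 and 4590.4 in knockout libraries, against 3573, 3525 and 3254 in control libraries. The lowest knockout library, replicate 3, stood well above the highest control library, replicate 1. Its increase of 0.54 (SE 0.085, adjusted p = 0.00023) had the smallest adjusted p of the 34 members and was kept in each of the 6 fits that left out 1 library. BNIP3L transcripts are 38.9% GC, and with the trend removed the difference was 0.15 (SE 0.052, adjusted p = 0.099), which did not pass.

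**Figure D2:**
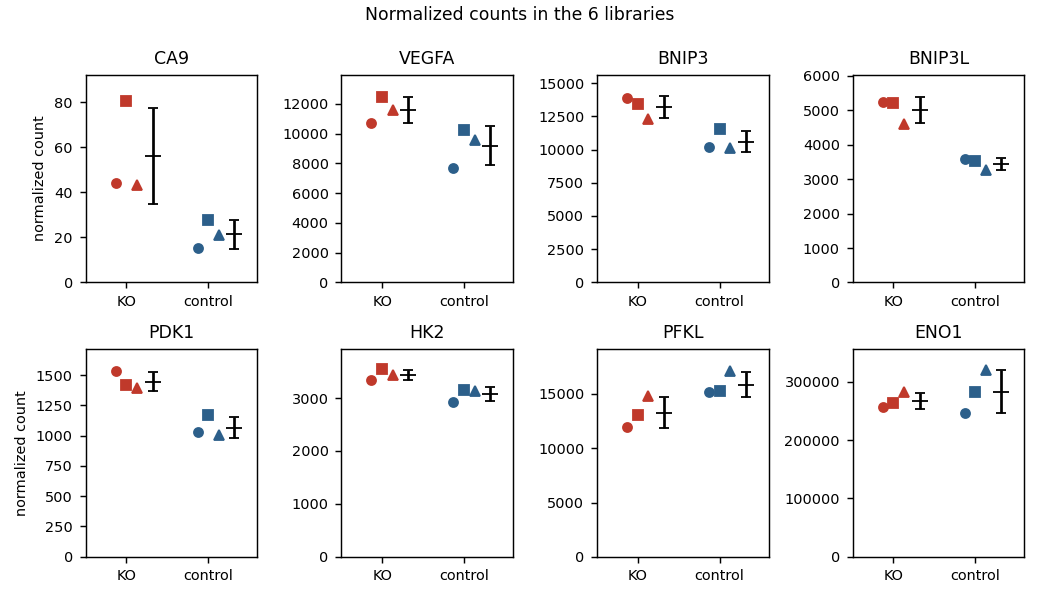
Normalized counts of 8 members in the knockout (red, left) and control (blue, right) libraries: circles, squares and triangles are replicates 1, 2 and 3, and the bar beside each group is its mean ± SD (n = 3). The groups do not overlap for any of the 8 except ENO1; PFKL is the one lower in the knockout libraries, at 13277 against 15869 on average.

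AK4, INSIG2 and MXI1 were higher as deposited and not with the trend removed. AK4 (ENSG00000162433.15, chromosome 1, 65147549 to 65232145, plus strand), a mitochondrial adenylate kinase, had 3507, 3406 and 3059 normalized counts in knockout libraries, against 2307, 2636 and 2494 in control libraries. Its groups did not overlap, it rose by 0.42 (SE 0.089, adjusted p = 0.0021), and the call was kept in each of those 6 fits. INSIG2, which holds the sterol sensor SCAP in the endoplasmic reticulum, had 1525, 1460.5 and 1291 in knockout libraries, against 969.5, 1192 and 1174 in control libraries, with a fold change of 0.36 (SE 0.11, adjusted p = 0.017). The repressor MXI1, which competes with MYC for the partner MAX, had 1448, 1454 and 1447 in knockout libraries, against 1063, 1246 and 1210.3 in control libraries, with a fold change of 0.31 (SE 0.098, adjusted p = 0.022). The 3 knockout values of MXI1 lay close together, above all control values. The calls of INSIG2 and MXI1 were each lost without knockout replicate 1 (0.31, adjusted p = 0.095 and 0.31, adjusted p = 0.075) or 2 (0.34, adjusted p = 0.081 and 0.31, adjusted p = 0.095). Their transcripts are low in GC, at 42.5% for AK4, 35.4% for INSIG2 and 43.7% for MXI1. With the trend removed their differences were 0.13, -0.06 and 0.11 (adjusted p = 0.3, 0.75 and 0.45), so that INSIG2 changed sign.

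NDRG1, DDIT4 and ANKRD37 did not pass as deposited. NDRG1, a stress-responsive protein used as a marker of hypoxia, had 19593, 20744 and 21270.3 normalized counts in knockout libraries, against 15826, 21579.7 and 23457 in control libraries. Control replicate 1 stood well below the other control libraries, and the fold change of NDRG1 was 0.037 with that library and -0.13 without it, neither of them past the threshold (adjusted p = 0.82 and 0.16). DDIT4 (REDD1), an inhibitor of mTORC1 signalling, had 11105, 12294 and 12095 in knockout libraries, against 11851, 11844 and 11236 in control libraries, which overlapped. Its fold change was 0.022 (SE 0.077, adjusted p = 0.85) as deposited. Removing the trend put DDIT4 higher by 0.26 (SE 0.065, adjusted p = 0.029), a call kept in 1 of the 6 fits that left out a library, that without control replicate 1. It was lost without control replicate 2 (0.29, adjusted p = 0.0502) or 3 (0.19, adjusted p = 0.081) and without knockout replicate 1 (0.28, adjusted p = 0.097), 2 (0.22, adjusted p = 0.16) or 3 (0.28, adjusted p = 0.082). ANKRD37, an ankyrin repeat protein, had 453, 459.9 and 490 in knockout libraries, against 461, 441 and 452 in control libraries. Its fold change was 0.05 (SE 0.12, adjusted p = 0.78) with a 95% interval of -0.20 to 0.30, and -0.19 (SE 0.11, adjusted p = 0.31) with the trend removed. In GENCODE 29, 41.2% of the exon bases of DDIT4 lie in an antisense gene, and 35.2% of those of ANKRD37 in exons of UFSP2 on the opposite strand, which read 1031 in knockout and 760.2 in control libraries on average. The part of such reads was not tested.

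The letters of 5 promoters show where ACGTG, one form of the HIF core, stands in members that changed and in members that did not pass. Below are the 250 bases before the RefSeq transcription start (GRCh38.p14), 5′ to 3′ on the strand of the gene, with each ACGTG on either strand (read as CACGT on the strand shown) in capitals. CA9 (chr9:35673678-35673927, plus strand) and BNIP3 (chr10:131981924-131982173, minus strand) were called higher in both analyses. ANKRD37 (chr4:185396591-185396840, plus strand) and GAPDH (chr12:6535014-6535263, plus strand) were called in neither, and PFKL (chr21:44299803-44300052, plus strand) was lower as deposited.
CA9: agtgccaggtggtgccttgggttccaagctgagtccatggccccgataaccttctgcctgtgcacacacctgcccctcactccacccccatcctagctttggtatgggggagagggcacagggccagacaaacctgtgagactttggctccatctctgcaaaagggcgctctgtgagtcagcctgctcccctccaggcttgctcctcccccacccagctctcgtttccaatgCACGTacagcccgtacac
BNIP3: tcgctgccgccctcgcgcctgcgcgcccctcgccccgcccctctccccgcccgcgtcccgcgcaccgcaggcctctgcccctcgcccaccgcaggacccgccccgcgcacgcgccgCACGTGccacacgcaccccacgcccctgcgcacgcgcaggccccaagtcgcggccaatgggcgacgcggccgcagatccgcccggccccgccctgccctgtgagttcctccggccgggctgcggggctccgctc
ANKRD37: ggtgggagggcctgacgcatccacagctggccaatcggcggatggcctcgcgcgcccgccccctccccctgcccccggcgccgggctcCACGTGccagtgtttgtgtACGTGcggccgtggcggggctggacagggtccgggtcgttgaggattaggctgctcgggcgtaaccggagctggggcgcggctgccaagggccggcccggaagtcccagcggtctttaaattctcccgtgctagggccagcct
GAPDH: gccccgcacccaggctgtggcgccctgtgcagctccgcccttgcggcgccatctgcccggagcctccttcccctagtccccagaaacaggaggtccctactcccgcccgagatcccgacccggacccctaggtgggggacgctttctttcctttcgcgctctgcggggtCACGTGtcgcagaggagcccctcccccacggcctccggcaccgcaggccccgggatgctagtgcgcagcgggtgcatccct
PFKL: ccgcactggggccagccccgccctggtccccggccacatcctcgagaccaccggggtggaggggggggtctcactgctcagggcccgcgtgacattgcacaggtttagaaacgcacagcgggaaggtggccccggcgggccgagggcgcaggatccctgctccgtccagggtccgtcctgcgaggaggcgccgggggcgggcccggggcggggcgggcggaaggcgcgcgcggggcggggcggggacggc
The window of CA9 holds 1 match, whose first letter lies 18 bases before the start. BNIP3 holds 2 matches that overlap in the palindrome CACGTG, at 134 and 133 bases, and GAPDH likewise 2, at 81 and 80 bases. ANKRD37 holds 3, at 162, 161 and 143 bases, and PFKL holds no ACGTG. Over all 35116 promoters of the table, 18.5% held ACGTG on either strand within 250 bases, against 53.3% of 15 promoters of 9 HIF targets, 50% of 6 promoters of 4 regulators and 37.8% of 37 promoters of the 17 enzymes. Several members have more than 1 promoter in the table, and promoters of the same gene can overlap. Counted by gene, at least 1 promoter held the motif in 7 of 9 HIF targets, 3 of 4 regulators and 11 of 17 enzymes, and in 21.7% of all 27305 genes. VEGFA, BNIP3L, NDRG1 and PFKFB2 had no entry among the promoters. The other form of the core, GCGTG on either strand (CACGC on the strand shown), is not marked. It stands 4 times in the window of BNIP3, 1 time in that of PFKL and 0 times in those of CA9, ANKRD37 and GAPDH. GCGTG was held by 73.3% of the 15 promoters of HIF targets, 50% of the 6 of regulators and 27.0% of the 37 of enzymes, against 32.2% of all promoters. The shares over all promoters and all genes include genes outside the deposited table and were not matched for GC content. Whether the members hold either core more often than comparable genes was therefore not tested. A match is a description of these letters and not a measured binding site.

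The PFKFB enzymes set the level of fructose 2,6-bisphosphate, the main activator of phosphofructokinase, and the PDK kinases switch off pyruvate dehydrogenase and so keep pyruvate from the mitochondria. PDK1 (ENSG00000152256.13, chromosome 2, 172555373 to 172608669, plus strand) was read at 1533, 1414 and 1390.1 normalized counts in knockout libraries, against 1029.8, 1166 and 1002 in control libraries. PDK3 had 739, 670 and 616 in knockout libraries, against 490.1, 559.5 and 437 in control libraries, and PFKFB2 had 1549.7, 1492 and 1326 in knockout, against 1002, 1231 and 1233 in control libraries. In each of these genes every knockout library was above every control library. PDK1 rose by 0.44 (SE 0.10, adjusted p = 0.0034), PDK3 by 0.45 (SE 0.13, adjusted p = 0.012) and PFKFB2 by 0.34 (SE 0.11, adjusted p = 0.024). The call of PDK1 was kept in each fit that left out 1 library, that of PDK3 was lost without control replicate 3 (0.36, adjusted p = 0.053) or knockout replicate 1 (0.38, adjusted p = 0.082), and that of PFKFB2 without control replicate 1 (0.24, adjusted p = 0.058) or knockout replicate 1 (0.29, adjusted p = 0.11) or 2 (0.32, adjusted p = 0.1). Their transcripts are 39.8%, 43.5% and 43.5% GC, and with the trend removed the differences were 0.00051, 0.23 and 0.091 (adjusted p = 0.998, 0.18 and 0.63), none past the threshold.

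PFKFB3 and PFKFB4, the isoforms most often described as HIF targets, did not pass as deposited. PFKFB3 had 4837, 4877 and 5245 normalized counts in knockout libraries, against 5080.3, 5454 and 5866 in control libraries, a fold change of -0.13 (SE 0.083, adjusted p = 0.23). PFKFB4 had 2071, 2079 and 2202 in knockout libraries, against 1958, 2158 and 2095 in control libraries, a fold change of 0.033 (SE 0.088, adjusted p = 0.8). The groups overlapped in both genes. Trend removal put PFKFB4 at 0.22 (SE 0.062, adjusted p = 0.047), a call kept in 1 of the 6 fits that left out a library, that without control replicate 1, and lost in the other 5, at adjusted p = 0.058 to 0.19 and fold changes of 0.19 to 0.26. The ratio of PFKFB4 to PFKFB3 within a library does not depend on the size factor. Its log2 value was -1.22, -1.23 and -1.25 in knockout libraries and -1.37, -1.34 and -1.48 in control libraries. The difference was 0.16 and the groups did not overlap (exact two-sided permutation p = 0.1, the smallest that 3 against 3 allows, and 0.133 adjusted over the 4 ratios tested).

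**Figure D3:**
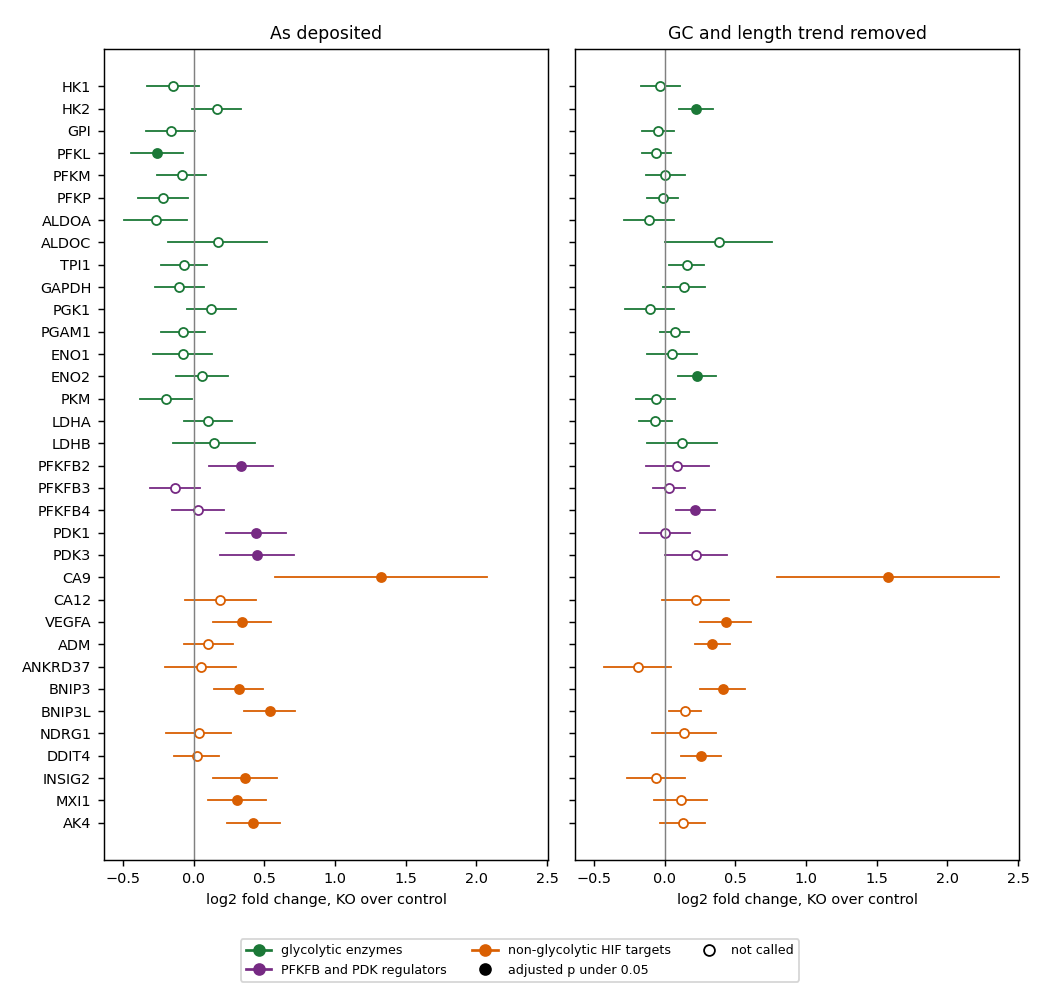
Log2 fold changes of the 34 members, knockout over control, with 95% intervals of limma (n = 3 libraries per group), as deposited (left) and with the GC and length trend removed (right); filled points passed an adjusted p of 0.05. The HIF targets (orange) include 7 called higher on the left and 5 on the right, against 0 and 2 of the enzymes (green).

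The first steps of glycolysis trap glucose and commit it to the pathway. The hexokinases HK1 and HK2, which phosphorylate glucose, did not pass the test as deposited. HK2 (ENSG00000159399.10, chromosome 2, 74833981 to 74893359, plus strand) had 3343, 3541 and 3429.7 normalized counts in knockout libraries, against 2921, 3159 and 3129.7 in control libraries, and was the 1 enzyme with every knockout library above every control library. Its fold change was 0.16 (SE 0.082, adjusted p = 0.13), and 0.22 (SE 0.054, adjusted p = 0.025) with the trend removed. That last call was lost in 5 of 6 fits that left out a library, all but that without control replicate 1, at adjusted p = 0.055 to 0.13 and fold changes of 0.21 to 0.24. HK1 averaged 19541 ± 1391 in knockout and 21684 ± 2323 in control libraries (SD, n = 3 each), a fold change of -0.15 (SE 0.088, adjusted p = 0.2). The log2 ratio of HK2 to HK1 was -2.47, -2.42 and -2.62 in knockout libraries and -2.74, -2.76 and -2.95 in control libraries. These did not overlap and differed by 0.31 (exact two-sided permutation p = 0.1, the smallest possible, 0.133 adjusted over 4 ratios). GPI, which isomerises glucose 6-phosphate, averaged 14711 ± 1272 in knockout and 16434 ± 753 in control libraries, a fold change of -0.16 (SE 0.081, adjusted p = 0.13). Without control replicate 1 HK1 was lower, at -0.22 (adjusted p = 0.024), and without knockout replicate 3 GPI was, at -0.23 (adjusted p = 0.0496).

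Phosphofructokinase catalyses the committed step, and its liver-type subunit PFKL was the only enzyme called as deposited. PFKL (ENSG00000141959.17, chromosome 21, 44300051 to 44327376, plus strand) had 11949, 13078 and 14804 normalized counts in knockout libraries, against 15193, 15260.3 and 17154 in control libraries. The groups did not overlap, and PFKL fell with a log2 fold change of -0.26 (SE 0.088, adjusted p = 0.03). It was lost without control replicate 2 (-0.29, adjusted p = 0.053) or 3 (-0.20, adjusted p = 0.11) and without knockout replicate 1 (-0.19, adjusted p = 0.17) or 2 (-0.25, adjusted p = 0.11). PFKL transcripts have the highest GC content of the 34, 64.1%, and with the trend removed the difference was -0.058 (SE 0.047, adjusted p = 0.48). The platelet-type subunit PFKP had 24617, 26182 and 29074 in knockout libraries, against 29400, 29818 and 33490.2 in control libraries, also without overlap, at -0.22 (SE 0.084, adjusted p = 0.056) and at -0.013 with the trend removed. PFKP passed without control replicate 1 (-0.25, adjusted p = 0.012) or without knockout replicate 3 (-0.28, adjusted p = 0.027). PFKM, the muscle-type subunit, averaged 4202 ± 161 in knockout and 4462 ± 303 in control libraries, a fold change of -0.085 (SE 0.083, adjusted p = 0.45). PFKP over PFKL had log2 ratios of 1.04, 1.00 and 0.97 in knockout libraries and 0.95, 0.97 and 0.97 in control libraries, a difference of 0.045 (exact permutation p = 0.1, 0.133 adjusted over 4 ratios).

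Aldolase splits the sugar and triose phosphate isomerase, TPI1, interconverts the resulting trioses. ALDOA averaged 1132 ± 103 in knockout and 1363 ± 130.4 in control libraries and ALDOC 744 ± 93.7 in knockout and 677 ± 189 in control libraries (SD, n = 3 each), with fold changes of -0.27 (SE 0.11, adjusted p = 0.06) and 0.17 (SE 0.17, adjusted p = 0.45). Every knockout library of ALDOA was below every control library, whereas ALDOC overlapped, with control replicate 1 at 463, below all other libraries. Without that library ALDOC stood at -0.081 and ALDOA at -0.34 (adjusted p = 0.62 and 0.011), so ALDOA then passed. The ALDOA level is uncertain, since 42.3% of its exon bases in GENCODE 29 also belong to another gene on the same strand (ENSG00000285043), which read 366 in knockout and 468 in control libraries on average. How reads in shared exons were assigned was not tested. TPI1 averaged 37318 ± 1142 in knockout and 39172 ± 2160.2 in control libraries, a fold change of -0.069 (SE 0.077, adjusted p = 0.52).

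The steps of the payoff phase, which return ATP, held the most abundant members and passed no test as deposited. GAPDH, which reduces NAD, had 96434, 99703 and 103706 normalized counts in knockout libraries, against 114058, 101800 and 105656 in control libraries, a fold change of -0.10 (SE 0.081, adjusted p = 0.36). PGK1, the first step to make ATP, averaged 47171 ± 1925 in knockout and 43336 ± 3639 in control libraries, a fold change of 0.13 (SE 0.082, adjusted p = 0.25). PGAM1, which moves the phosphate, averaged 30481 ± 356 in knockout and 32141 ± 1142 in control libraries, a fold change of -0.076 (SE 0.074, adjusted p = 0.45). All knockout libraries of PGAM1 lay below all its control libraries, whereas those of GAPDH and PGK1 overlapped. ENO1, the main enolase, had 256733, 263620 and 282209 in knockout libraries, against 246559, 283031 and 320672 in control libraries, which overlapped widely, at -0.076 (SE 0.099, adjusted p = 0.58). ENO2, the neuronal enolase and a HIF target, averaged 6086 ± 383 in knockout and 5844 ± 565 in control libraries, at 0.061 (SE 0.088, adjusted p = 0.62). ENO2 rose once the trend was removed, by 0.23 (SE 0.062, adjusted p = 0.039), a call that held without control replicate 1 and was lost in the other 5 fits that left out a library (adjusted p = 0.052 to 0.18, fold changes 0.21 to 0.26). PKM, pyruvate kinase, averaged 185330 ± 13156 in knockout and 212258 ± 11811 in control libraries, at -0.20 (SE 0.088, adjusted p = 0.091). GENCODE 29 lists 62 GAPDH and 13 PGAM1 pseudogenes, and reads shared with them were not separated here.

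Lactate dehydrogenase closes the pathway and regenerates NAD. LDHA, its muscle-type subunit and a HIF target, had 82909, 80284 and 77395 normalized counts in knockout libraries, against 80003, 72745 and 71632 in control libraries. The groups overlapped and its fold change was 0.10 (SE 0.08, adjusted p = 0.34), with a 95% interval of -0.066 to 0.27. LDHB, the heart-type subunit, averaged 326 ± 19.0 in knockout and 295 ± 26.5 in control libraries, a fold change of 0.14 (SE 0.14, adjusted p = 0.45). In counts per kilobase of annotated exon, LDHA made up 99.2% ± 0.027 of the LDHA and LDHB sum in knockout and 99.2% ± 0.034 in control libraries (SD, n = 3 each). Exons of another gene on the same strand cover 33.4% of the LDHB exon bases in GENCODE 29, so the LDHB level is uncertain. The log2 ratio of LDHA to LDHB differed by -0.043 between the groups, with overlap (exact permutation p = 0.4, also 0.4 adjusted over 4 ratios).

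Levels per kilobase of annotated exon ranked the members. ENO1 came first at 50705 ± 2498 normalized counts per kilobase in knockout and 53719 ± 7024 in control libraries (SD, n = 3 each), then GAPDH at 33528 ± 1222 in knockout and 35952 ± 2103 in control, and PKM at 21623 ± 1535 in knockout and 24765 ± 1378 in control. TPI1, LDHA and PGAM1 followed at 13821 ± 423, 12914 ± 444 and 11869.5 ± 139 in knockout libraries and 14508 ± 800.1, 12044 ± 732 and 12516 ± 445 in control libraries. LDHA and PGAM1 stood in opposite order in the knockout and control groups, and in the control libraries they differed by less than the SD of LDHA. The highest HIF target was DDIT4 at 5749 ± 309 in knockout and 5658 ± 172 in control libraries, and CA9 came last of the 34 at 33.6 ± 12.8 in knockout and 12.8 ± 3.85 in control libraries. Within families, HK1 held 84.5% ± 0.94 of the HK1 and HK2 counts per kilobase in knockout and 87.1% ± 0.87 in control libraries, and PFKP held 72.8% ± 0.11 of the phosphofructokinases in knockout and 72.8% ± 0.69 in control libraries. The 17 enzymes together took 1.91% ± 0.063 of all normalized counts in knockout and 1.97% ± 0.064 in control libraries.

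Set side by side, the median fold change of the HIF targets exceeded that of the enzymes by 0.39 as deposited, by 0.18 with the trend removed and by 0.22 after quantile normalization. For each library the median deviation of the HIF targets from the control mean, minus that of the enzymes, was 0.40, 0.42 and 0.25 in knockout replicates 1 to 3 and -0.018, 0.12 and -0.068 in control replicates 1 to 3 (log2). All knockout values lay above all control values. These medians are a description of the chosen genes and carry no test. The lists differed in base composition, with a median transcript GC content of 50.8% for the HIF targets, 43.5% for the regulators and 53.1% for the enzymes, against 48.5% for all genes tested. Fold change and GC content were related by a Spearman rho of -0.539 over the 34 members, which share the 6 libraries. With the trend removed this rho was 0.319 over the members, against -0.028 over all genes. Over the 12 HIF targets it was -0.224 as deposited and 0.804 with the trend removed, and over the 17 enzymes -0.515 and 0.225. Among the HIF targets, fold changes with the trend removed were thus higher where GC content was higher. Subtracting a trend that falls with GC content itself raises GC-rich genes and lowers GC-poor ones. DDIT4 moved from 0.022 to 0.26 and INSIG2 from 0.36 to -0.06. How far the subtraction set this rho was not tested. At 51% GC or more, 84.4% of 6142 tested genes and 11 of 14 enzymes had a fold change below 0, against 0 of 6 HIF targets (CA9, VEGFA, ADM, BNIP3, NDRG1 and DDIT4). Of these targets NDRG1 and DDIT4 were not called, at 0.037 and 0.022. Their fold changes reached -0.13 and -0.0062 in fits that left out 1 library. BNIP3, at 51.4% GC, lay just above the limit. The limit of 51% was not planned in advance, and the members were chosen with earlier results of these data known. These shares are therefore a description and carry no test. Control replicate 1 had the lowest value of its group in 6 of the 12 HIF targets and in 12 of the 17 enzymes. Leaving out knockout replicate 1 left 4 HIF targets called higher as deposited and 1 with the trend removed, against 10.9% and 0.87% of all genes. Leaving out knockout replicate 2 left 3 and 2, against 12.2% and 1.02% of all genes. With control replicate 2 or 3 or knockout replicate 3 left out 7 were called as deposited, against 15.9%, 14.3% and 18.7% of all genes. With the trend removed 4 were called in each of these fits, against 2.01%, 2.57% and 1.54% of all genes. Without control replicate 1, 7 HIF targets were called higher and 0 lower, against 22.6% and 19.6% of all genes, and 0 enzymes were higher and 4 lower (PFKL, PFKP, ALDOA and HK1). Without control replicate 2 or 3, or without knockout replicate 1 or 2, 0 enzymes were called either way, while lower calls over all genes came to 9.27% and 7.29%, and 3.8% and 4.89%. Without knockout replicate 3, 0 enzymes were higher and 3 lower (PFKL, PFKP and GPI), against 18.7% and 15% of all genes. Without control replicate 1 and with the trend removed, an alternative chosen after seeing the data, 6 HIF targets and 4 enzymes (HK2, TPI1, GAPDH and ENO2) were higher, and 0 HIF targets and 1 enzyme (PGK1) lower, against 10.2% and 14.5% of all genes.

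**Figure D4:**
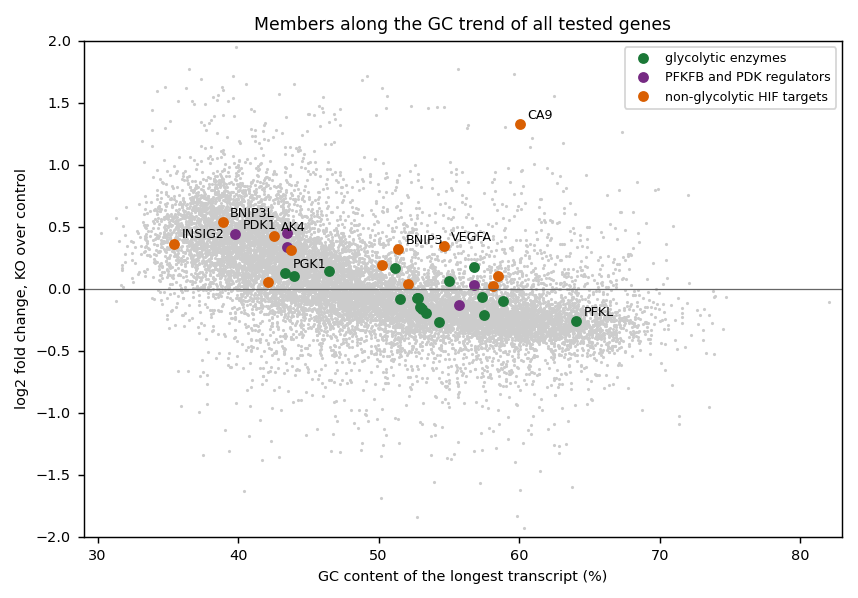
Log2 fold change (knockout over control, as deposited) against the GC content of the longest transcript for tested genes (grey) and the 34 members (coloured by list). Of the tested genes, 8 lie beyond the vertical range, and the 20 without a GC value are not shown. Grey points slope downwards from left to right; CA9, VEGFA and BNIP3 lie above the bulk at their GC content, whereas PFKL and most enzymes lie within it.

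Further genes of both pathways were counted in the same way. Of 46 further genes of glycolysis, pyruvate and pentose phosphate metabolism, 35 were in the table and 33 were tested. Of the 33, 6 rose and 8 fell (18.2% and 24.2%, median -0.076), against 18.9% and 14.4% of all genes. With the trend removed 0 rose and 3 fell (0% and 9.09%), against 4.08% and 5.95% of all genes. FBP1, the gluconeogenic enzyme that opposes phosphofructokinase, had 1953, 1939.9 and 2019 normalized counts in knockout libraries, against 2973, 2423 and 2969 in control libraries, at -0.49 (SE 0.095, adjusted p = 0.0011) and, with the trend removed, -0.33 (SE 0.073, adjusted p = 0.016). Every knockout library of FBP1 lay below every control library. Its call after trend removal was lost without control replicate 3 (-0.31, adjusted p = 0.051) or without knockout replicate 1 (-0.32, adjusted p = 0.091), 2 (-0.33, adjusted p = 0.084) or 3 (-0.34, adjusted p = 0.066). TALDO1, transaldolase, was lower at -0.29 (SE 0.075, adjusted p = 0.0086), and RPE, PGM2 and DLD were higher at 0.55 (SE 0.11, adjusted p = 0.0018), 0.44 (SE 0.10, adjusted p = 0.0036) and 0.44 (SE 0.10, adjusted p = 0.0044). RPE and transaldolase act in the pentose phosphate pathway, PGM2 in sugar phosphate conversion, and DLD in pyruvate dehydrogenase. The TALDO1 call was lost without knockout replicate 2 (-0.27, adjusted p = 0.0698). After trend removal none of these 4 passed (adjusted p = 0.46, 0.38, 0.55 and 0.66).

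Of 56 further hypoxia targets, 53 were in the table and 52 were tested. Of the 52, 16 rose and 2 fell (30.8% and 3.85%, median 0.15), against 18.9% and 14.4% of all genes. With the trend removed 6 rose and 1 fell (11.5% and 1.92%), against 4.08% and 5.95% of all genes. P4HA1, a collagen prolyl hydroxylase, had 3700.4, 3454 and 3294 normalized counts in knockout libraries, against 2342, 2251 and 1968 in control libraries. These did not overlap, and it rose by 0.67 (SE 0.092, adjusted p = 7.6e-05), and by 0.34 (SE 0.055, adjusted p = 0.0038) with the trend removed. PLOD2, a collagen lysyl hydroxylase, had 5122, 4495 and 4331 in knockout libraries, against 2589.7, 3058 and 2946 in control libraries, and KDM3A, a histone H3 lysine 9 demethylase, 3519, 3563 and 3344 in knockout, against 2502, 2629 and 2317 in control libraries. Neither gene overlapped between the groups. PLOD2 rose by 0.70 (SE 0.092, adjusted p = 6.2e-05) and KDM3A by 0.49 (SE 0.085, adjusted p = 0.00054), and with the trend removed they stood at 0.27 (SE 0.072, adjusted p = 0.035) and 0.18 (SE 0.056, adjusted p = 0.068). CITED2, which limits HIF activity by competing for p300 and CBP, had 9173, 9832 and 10665 in knockout libraries, against 11086, 13533 and 14769 in control libraries, all lower. It fell with a log2 fold change of -0.40 (SE 0.097, adjusted p = 0.0052), or -0.39 (SE 0.098, adjusted p = 0.028) after trend removal. That last call was kept without control replicate 1 and lost without control replicate 2 (-0.36, adjusted p = 0.099) or 3 (-0.30, adjusted p = 0.079) or knockout replicate 1 (-0.33, adjusted p = 0.16), 2 (-0.39, adjusted p = 0.11) or 3 (-0.45, adjusted p = 0.056). The trend-removed call of PLOD2 was lost without control replicate 2 (0.31, adjusted p = 0.065) or knockout replicate 1 (0.26, adjusted p = 0.16), 2 (0.31, adjusted p = 0.094) or 3 (0.26, adjusted p = 0.13), and that of P4HA1 was kept in each of the 6 fits.

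The authors' deposited table, made with DESeq2, called 7 HIF targets higher and 0 lower, 3 regulators higher and 0 lower, and 0 enzymes higher and 2 lower (PFKL and ALDOA) at an adjusted p under 0.05. Over the 13369 genes with an adjusted p in the authors' deposited table, 21.1% were higher and 17.4% lower. The authors' deposited table gave CA9 a log2 fold change of 1.39 and BNIP3L one of 0.54.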

How the data were processed

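FastQC, the aligner STAR 2.4.0, the read counter featureCounts 1.5.0, DESeq2 1.30.1 and the build GRCh38.p13 are named in the submitters' processing notes, while the annotation release, strand setting and any row filter could not be taken from the labels. A single table was deposited for the series. Per the file headers its columns are a normalized count (a signal: reads over 1 size factor for each library), the authors' log2 fold change and its error, a Wald score, and p-values raw and adjusted. Every listed gene had at least 1 read in each library.

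Groups were compared with limma 3.58.1 in R 4.3.3, its variance trend switched on, using log2(value + 1), which understates changes of low genes, over genes with a mean of at least 10, two-sided, threshold 0.05. Reads were recovered from the deposited values, and 100% of values lay within 0.01 of a whole number. edgeR 4.0.16 on these reads called 2682 genes higher and 2230 lower, and DESeq2 1.42.0 called 2855 and 2294. No pair of libraries was a repeat (chi-square per degree of freedom at least 9.15). To remove the GC and length trend, natural splines with 5 terms each were fitted per library and subtracted. GC content, exon lengths and gene coordinates come from GENCODE 29 on GRCh38 (15681 of 15706 gene IDs matched, without version), promoters from RefSeq. Counts per kilobase use the union of annotated exons. Scripts were tested on simulated data. Named genes were all members, KMT2C and, from each list of other pathway genes, the called genes without overlap between groups, up to 3 each way by adjusted p; 1 of these is not reported here. Members, lists and tests were chosen with earlier results of these data known. Alternatives added after the data were seen removed the trend in fits without 1 library.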

Additional observations from a re-analysis of the deposited data

How the results depend on the processing

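Leaving out 1 library, with or without trend removal, gave 127 to 3300 genes called higher and 252 to 2868 lower (0.87% to 22.6% and 1.73% to 19.6%). Enzymes were 0 to 4 higher and 0 to 4 lower, regulators 0 to 3 higher and HIF targets 1 to 7 higher. Other glycolysis and pyruvate genes were 0 to 7 higher and 0 to 9 lower, and other hypoxia targets 2 to 18 higher and 0 to 5 lower. The share of all genes called moved from fit to fit, so these ranges have no single share to be set against. Over these fits the difference of medians was 0.15 to 0.46. Of 11 members called as deposited, 3 (PDK1, BNIP3L and AK4) were called in each of these 6 fits; with the trend removed it was 1 of 8 (ADM). The count of 0 enzymes higher was 0 also by edgeR and DESeq2 on recovered reads. With the trend removed, 595 genes were higher and 868 lower, 2 enzymes higher and 0 lower, 1 regulator higher, 0 other glycolysis genes higher and 3 lower, and 6 and 1 other hypoxia targets. The difference of medians was then 0.18, and 0.22 after quantile normalization.

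The sample titles number the replicates without saying whether the numbers pair the libraries. Deviations of same-numbered libraries correlated at 0.066, 0.0063 and 0.13. Knockout replicates 1 and 3 correlated best with the control library of their own number, and knockout replicate 2 with control replicate 1 (0.022). These values did not settle whether the libraries are paired, and the main fit took them as unpaired. With the replicate block, 1 enzyme was higher and 6 lower (5.88% and 35.3% of the 17). Of the other hypoxia targets 19 were higher and 7 lower (36.5% and 13.5%), and of the HIF targets 7 were higher and 0 lower. Over all genes 22.2% were higher and 20.7% lower. With the replicate block and the trend removed together, 540 genes were higher and 773 lower (3.7% and 5.3% of all genes). Enzymes were then 2 higher and 0 lower, and 0 regulators were higher. Other glycolysis genes were 0 higher and 3 lower, other hypoxia targets 6 higher and 1 lower, and the difference of medians was 0.18. Enzymes called lower numbered 2 (11.8%) with a mean of at least 50, with TMM or by DESeq2, against 17.5%, 15.1% and 15.7% of all genes. By edgeR they numbered 3 (17.6%), against 15.3% of all genes.

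Directions turned mainly with the trend removed, with or without the block: PFKM 0.0054, TPI1 0.16, GAPDH 0.14, PGK1 -0.11, PGAM1 0.073, ENO1 0.053, LDHA -0.065, PFKFB3 0.029, ANKRD37 -0.19, INSIG2 -0.060 and KMT2C -0.039. Quantile normalization turned TPI1 to 0.0089, GAPDH to 0.12, PGAM1 to 0.057, ENO1 to 0.031 and ANKRD37 to -0.039, and ended the calls of PFKL (adjusted p = 0.096), PFKFB2 (0.082), INSIG2 (0.06) and MXI1 (0.092), while ALDOA then passed (-0.35, adjusted p = 0.027). Over the fits that left out 1 library, fold changes ran from -0.081 to 0.33 for ALDOC, -0.17 to 0.017 for ENO1, -0.019 to 0.12 for ENO2, -0.0064 to 0.063 for PFKFB4, -0.13 to 0.15 for NDRG1 and -0.0062 to 0.067 for DDIT4. The cause was not tested. Genes below 10 counts on average, PFKFB1 and LDHAL6A, were not tested.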
